A study of Mus musculus with 4 samples.

Results

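The replication-dependent histone genes of the mouse were taken as the protein-coding genes of the GENCODE M21 annotation (genome build GRCm38) whose symbol starts with Hist1h, Hist2h, Hist3h or Hist4h. These were 67 of the 21805 protein-coding genes and of the 55563 genes and other features in the deposited table. They comprise 6 genes for the linker histone H1, 18 for H2A, 18 for H2B, 12 for H3 and 13 for H4. Most lie in the large cluster on chromosome 13 (54 genes), and the others are on chromosomes 3 (10 genes), 11 (2 genes) and 6 (1 gene). Counts were above 0 in at least 1 library for 62 of the 67 genes. The 5 genes at 0 in all 4 libraries were Hist1h2aa, Hist2h2aa2, Hist1h3h, Hist2h3c1 and Hist1h4m.

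The study sequenced small RNA, with reads of 50 nt, from RAW264.7, a mouse line with macrophage features, and from the extracellular vesicles its cells shed. All cells carried a short hairpin RNA and received doxycycline, at 1 µg per mL, for 3 days before the medium was changed and then until harvest, 24 h later. The 4 libraries are vesicles labelled shDis3l2, vesicles labelled shNS, cells labelled shDis3l2 and cells labelled shNS, where shDis3l2 is the hairpin against Dis3l2 and shNS the non-silencing one. Vesicles were banded in a sucrose gradient and treated with micrococcal nuclease, per the labels' protocols, and each group is a single library of a single line. With 1 library per group there is no replicate spread and no test. Every interval below is an exact 95% interval that covers counting error only. The series' question, as its title gives it, concerns RNA surveillance by Dis3l2, a cytoplasmic exonuclease that degrades RNAs carrying oligouridine tails, and the packaging of RNA into vesicles.

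Replication-dependent histone mRNAs are made mainly in S phase, when new DNA is wrapped into nucleosomes, each built from the core histones H2A, H2B, H3 and H4 and held by the linker histone H1. They are unusual among mRNAs of animals in ending, without a poly(A) tail, just after a conserved stem-loop that is bound by the protein SLBP and formed with the help of the U7 small nuclear RNA. Their decay at the end of S phase begins with the addition of uridines after the stem-loop. Some of the genes can also give longer, polyadenylated transcripts, which run on past the stem-loop.

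The stem-loop was located in the annotated transcripts because it defines the RNA 3′ end of this family. A stretch of 16 letters was searched on the transcript strand: GG, 2 free letters, CTT, a free letter, T, a free letter, AG, 2 free letters and CC. This form of the motif was chosen among 4 after values had been seen. It was present in 45 of the 67 genes, or 67.2%, and in 227 of 101577 transcripts of other protein-coding genes, or 0.223%. On the opposite strand it was present in 0 member genes and in 0.209% of the other transcripts. The 45 matches were of 8 different sequences, each with 6 complementary pairs around a loop of 4 letters. A gene for each sequence is printed here, 5′ to 3′ as DNA letters from the GENCODE M21 transcripts, with the stem-loop in capitals and 5 flanking letters on each side, together with 2 more genes that share the commonest form.
Hist2h2aa1: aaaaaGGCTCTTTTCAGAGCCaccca
Hist1h2bg: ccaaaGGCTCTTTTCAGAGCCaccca
Hist1h1c: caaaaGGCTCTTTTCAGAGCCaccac
Hist1h3e: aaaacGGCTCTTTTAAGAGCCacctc
Hist2h2ac: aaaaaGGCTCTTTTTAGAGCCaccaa
Hist1h3g: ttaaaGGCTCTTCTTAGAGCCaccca
Hist4h4: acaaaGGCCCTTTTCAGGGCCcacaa
Hist2h4: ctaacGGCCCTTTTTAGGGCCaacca
Hist1h4a: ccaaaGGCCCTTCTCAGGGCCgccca
Hist1h4b: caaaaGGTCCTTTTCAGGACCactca

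The first of these forms was carried by 25 genes of the H1, H2A, H2B and H3 classes, and the form of Hist4h4 by 7 genes, all H4. The Hist1h3e form was carried by 6 genes. The forms of Hist2h4 and of Hist1h4b were carried by 2 genes each, and those of Hist2h2ac, Hist1h3g and Hist1h4a by 1 gene each. On GRCm38 the stem-loop of Hist2h2aa1 lies at chr3:96246032-96246047 on the plus strand, that of Hist1h2bg at chr13:23571843-23571858 on the plus strand, and that of Hist4h4 at chr6:136803998-136804013 on the minus strand. All 3 are in the untranslated part of a single-exon transcript. The annotated transcript ended within 100 nt after the stem-loop in 22 genes and ran on further in 23 genes. The other 22 genes had no match, and in 11 of these the annotated model stops at the coding sequence, so that their 3′ end could not be searched. Hist1h2af and Hist1h2ah had little more, with 393 of 399 nt and 387 of 405 nt coding. The models of Hist1h2bc, Hist1h2bp, Hist1h2bq and Hist1h2br have 2 or 3 exons. No match thus describes the annotated model, and whether these genes lack a stem-loop was not tested.

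Depth was 17612856 and 18190135 counts in the vesicle libraries labelled shDis3l2 and shNS, and 18416554 and 19741041 counts in the cell libraries labelled shDis3l2 and shNS. Counts on protein-coding genes made up 26.0% and 19.8% of the vesicle libraries and 8.92% and 7.03% of the cell libraries, so the scale changes a ratio of vesicles over cells. Values are counts per 1000000 counts of the library (CPM), and counts per 1000000 counts on protein-coding genes (the protein-coding scale) only where that scale is named. A single gene, Mcm7, took 157901 and 138634 per 1000000 on that scale in cells labelled shDis3l2 and shNS. In vesicles it took 5769 and 17092. Its larger share in cells raises every ratio of vesicles over cells on that scale, and the ratios without it were not computed. Dis3l2 itself had 1894 and 1713 counts in vesicles labelled shDis3l2 and shNS, and 13232 and 41 counts in cells labelled shDis3l2 and shNS. That is higher in the cell library labelled as its knockdown, so libraries are called by their labels throughout. Whether these counts come from the Dis3l2 mRNA, and whether the cell labels are right, was not tested. All 12 markers listed for macrophages, the labelled cell type, had counts in at least 3 libraries; they summed to 414 and 318 CPM in vesicles and 40.0 and 40.7 CPM in cells labelled shDis3l2 and shNS, with Itgam at 0 in cells labelled shNS. Of the 12, 11 of 11 that reached 20 counts were at least 2-fold higher in vesicles under shDis3l2 and 12 of 12 under shNS, where 70.0% and 66.5% of protein-coding genes were higher. By the protein-coding scale, 4 of 11 and 6 of 12 were higher under shDis3l2 and shNS, where 31.4% and 26.9% of protein-coding genes were. Epithelial markers summed to at most 16 counts in a library and fibroblast markers to at most 75 counts. Of the erythroid and serum markers, Hba-a1 and Hbb-bt were at 0 in all libraries, while Hbb-bs had 171 and 67 counts in vesicles and 5 and 4 counts in cells labelled shDis3l2 and shNS. The part of these differences in the histone results was not tested.

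Histone RNA made up a larger share of the vesicle libraries than of the cell libraries under both labels. The 67 genes summed to 19195 and 19586 counts in vesicles labelled shDis3l2 and shNS, against 3587 and 3282 counts in cells labelled shDis3l2 and shNS. This is 1090 and 1077 CPM in vesicles and 195 and 166 CPM in cells. The vesicle sums were 5.60-fold higher under shDis3l2 (log2 ratio 2.48, interval 2.43 to 2.54) and 6.48-fold higher under shNS (log2 ratio 2.70, interval 2.64 to 2.75). Most protein-coding RNA was also a larger share of the vesicle libraries, and the difference for histones was smaller on the protein-coding scale. On that scale the sums were 4195 and 5439 in vesicles labelled shDis3l2 and shNS, against 2183 and 2365 in cells labelled shDis3l2 and shNS, which is 1.92-fold and 2.30-fold higher in vesicles. As shares of protein-coding counts these sums are 0.420% and 0.544% in vesicles and 0.218% and 0.237% in cells.

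A gene is called higher or lower here when its ratio is at least 2-fold, its interval excludes 1 and the 2 libraries hold at least 20 counts on it. Of the 67 members, 54 reached that minimum in each comparison of vesicles with cells, and 13 did not. Under shDis3l2, 49 of the 54 were higher in vesicles and 3 were lower, where 70.0% of protein-coding genes were higher and 6.62% lower, and 63.5% of all genes were higher and 12.2% lower. Under shNS, 47 of the 54 were higher and 3 were lower, where 66.5% of protein-coding genes were higher and 7.46% lower, and 60.2% of all genes were higher and 13.3% lower. The same 47 genes were higher and the same 3 lower under both labels. The median log2 ratio of the members was 2.89 under shDis3l2 and 3.09 under shNS, against 1.90 and 1.71 for protein-coding genes. A member low in cells can reach the minimum through its vesicle counts alone. Of the members with at least 20 counts in the cell library itself, 36 of 41 were higher and 3 lower under shDis3l2. Under shNS, 31 of 37 were higher and 3 lower. No share of protein-coding genes was computed under this minimum, and the shares above use the minimum over 2 libraries.

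On the protein-coding scale, 36 members were higher in vesicles and 4 lower under shDis3l2, where 31.4% of protein-coding genes were higher and 20.4% lower. Under shNS the counts were 38 higher and 4 lower, where 26.9% of protein-coding genes were higher and 21.7% lower. The members' median log2 ratio on that scale was 1.34 and 1.60 under shDis3l2 and shNS, against 0.36 and 0.22 for protein-coding genes. When the scale was instead the counts of transcripts typed as protein coding, an alternative added after the data were seen, the summed log2 ratios were 0.51 and 0.75 and 25 and 29 members were higher under shDis3l2 and shNS, with medians of -0.07 and -0.23 for protein-coding genes. Bulk libraries cannot tell fewer cells that make an RNA from less of that RNA per cell, and a small-RNA library counts fragments, so how far these counts follow whole histone mRNAs was not tested.

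**Figure D1:**
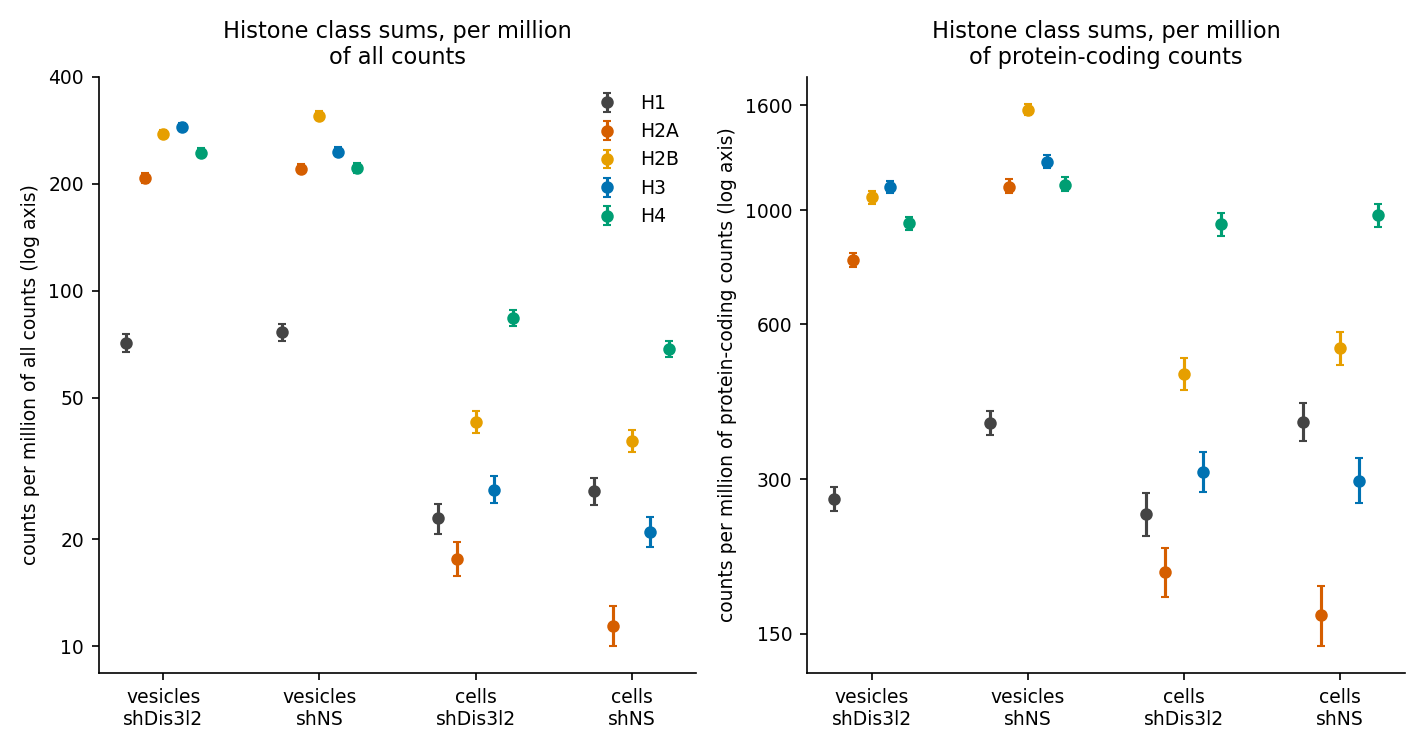
Summed histone counts of each class (H1, H2A, H2B, H3, H4; colours) in the 4 libraries, in CPM on the left and on the protein-coding scale on the right, on log axes, with exact 95% binomial intervals. All 5 classes sit higher in vesicles than in cells in CPM, and H4 sits at nearly the same level in vesicles and cells labelled shDis3l2 on the protein-coding scale (943 and 939).

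The classes differed in how far vesicles stood above cells. H2A showed the largest ratio, with 208 and 220 CPM in vesicles labelled shDis3l2 and shNS, against 17.6 and 11.4 CPM in cells labelled shDis3l2 and shNS. That is 11.8-fold and 19.2-fold higher in vesicles under shDis3l2 and shNS. H3 had 5094 and 4482 counts in vesicles and 509 and 414 counts in cells labelled shDis3l2 and shNS, 10.5-fold and 11.7-fold higher in vesicles. H2B, with 276 and 311 CPM in vesicles and 42.8 and 37.9 CPM in cells, was 6.45-fold and 8.22-fold higher. The H2A and H3 ratios lay above the H2B ratio under both labels, and their intervals did not overlap that of H2B. Part of the H2A ratio came with Hist2h2aa1. Without it H2A had 140 and 121 CPM in vesicles and 16.2 and 10.2 CPM in cells labelled shDis3l2 and shNS. Without Hist2h3c2, H3 had 183 and 176 CPM in vesicles and 22.5 and 16.9 CPM in cells. Both sums were made after these values were seen, and each gave smaller ratios than its whole class.

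H1 and H4 showed the smallest ratios. The linker histone genes summed to 71.3 and 76.4 CPM in vesicles and 22.9 and 27.3 CPM in cells labelled shDis3l2 and shNS, which is 3.12-fold and 2.80-fold higher in vesicles. H4 had 245 and 222 CPM in vesicles and 83.8 and 68.7 CPM in cells, which is 2.92-fold and 3.23-fold higher. H1 did not differ between vesicles and cells beyond counting error on the protein-coding scale under either label, with log2 ratios of 0.10 (interval -0.06 to 0.26) and -0.01 (interval -0.15 to 0.14). H4 did not differ under shDis3l2 on that scale, at 0.01 (interval -0.08 to 0.09), and was 0.20 (interval 0.11 to 0.29) higher under shNS. These values depend on Mcm7 being counted in the scale, and where H1 and H4 stand without it was not tested.

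The low H4 ratio came with a single gene. Hist4h4, an H4 gene that stands alone on chromosome 6, had 210 and 210 counts in vesicles labelled shDis3l2 and shNS, against 911 and 687 counts in cells labelled shDis3l2 and shNS. It had the most counts of any member in both cell libraries, with 25.4% and 20.9% of their histone counts. Without Hist4h4, a sum made after its values were seen, the other 12 H4 genes were 6.78-fold and 6.21-fold higher in vesicles under shDis3l2 and shNS. Likewise H1 without Hist1h1c was 5.13-fold and 5.31-fold higher. The whole family without Hist4h4 was 7.42-fold and 8.10-fold higher.

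**Figure D2:**
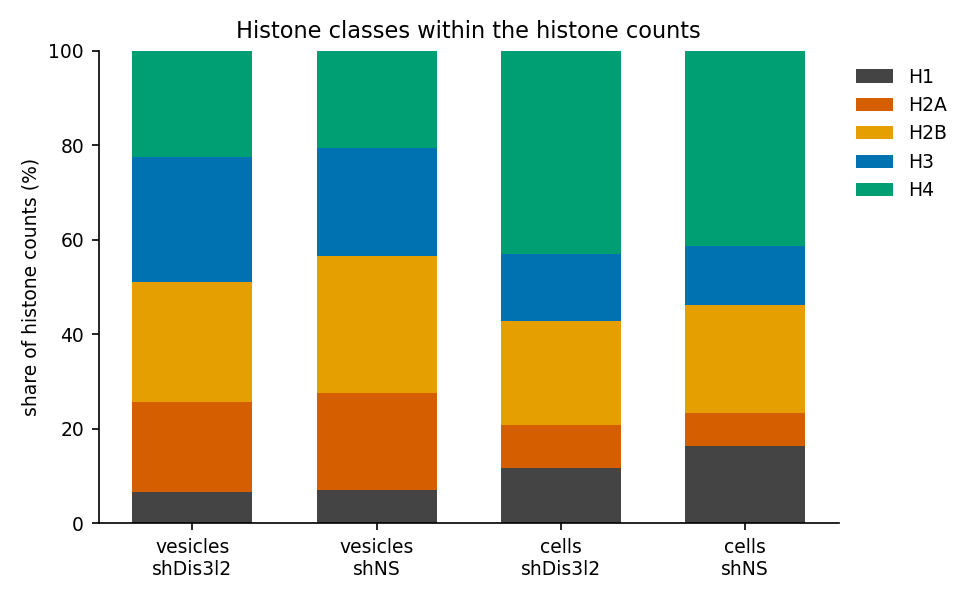
Share of the summed histone counts, in percent, that each class took in each library. H4 took 22.5% and 20.6% in vesicles labelled shDis3l2 and shNS and 43.0% and 41.3% in cells labelled shDis3l2 and shNS, while H2A took 19.1% and 20.5% in vesicles and 9.06% and 6.89% in cells.

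The histone genes with the most counts were largely different ones in vesicles and in cells. In the vesicle library labelled shDis3l2 they were Hist2h3c2, Hist2h2aa1, Hist1h2bg, Hist1h2br, Hist1h4c, Hist1h3e, Hist1h4j, Hist1h4n, Hist1h3a and Hist1h2ae, with between 531 and 1865 counts. Vesicles labelled shNS held 8 of the same genes among their first 10, with Hist1h2bk and Hist1h1e in place of Hist1h3a and Hist1h2ae. In cells labelled shDis3l2, after Hist4h4 came Hist1h1c with 206 counts and 8 genes with between 94 and 131 counts. Those 8 were Hist1h2bq, Hist1h4d, Hist1h2br, Hist1h4c, Hist1h1d, Hist1h2bh, Hist2h4 and Hist2h3c2. Cells labelled shNS had the same order at the top, with 687 counts of Hist4h4, 305 of Hist1h1c and 147 of Hist1h2bq, and held Hist2h2be, with 127 counts, in place of Hist2h3c2. Scaled to transcript length, Hist2h2aa1 led both vesicle libraries, with 116 and 170 CPM per kb in vesicles labelled shDis3l2 and shNS. Hist4h4 led both cell libraries on the same measure, with 17.3 and 12.1 CPM per kb. More genes were shared on this measure than by counts. Under shDis3l2, Hist1h4n, Hist1h3g, Hist1h2bk, Hist1h4c and Hist1h3a were among the first 10 in both vesicles and cells. By counts these were Hist1h2br, Hist1h4c and Hist2h3c2. Under shNS they were Hist1h4n, Hist1h4c, Hist1h2bk and Hist1h4f when scaled to length, and Hist1h4c and Hist1h2br by counts.

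The members that stood furthest above cells came mostly from the H2A, H2B and H3 classes. Hist2h2aa1, an H2A gene of the chromosome 3 cluster, had 1197 and 1807 counts in vesicles labelled shDis3l2 and shNS, against 26 and 25 counts in cells labelled shDis3l2 and shNS. Its vesicle level was 48.1-fold higher (interval 32.7 to 74.0) under shDis3l2 and 78.4-fold higher (interval 53.0 to 122) under shNS. Hist1h2bg, an H2B gene, had 1098 and 915 counts in vesicles and 20 and 25 counts in cells labelled shDis3l2 and shNS, 57.4-fold and 39.7-fold higher. Hist2h2aa1 was 16.5-fold and 27.8-fold higher on the protein-coding scale, and Hist1h2bg 19.7-fold and 14.1-fold higher, under shDis3l2 and shNS. In both genes the vesicle counts and the cell counts were far apart under either label. Only 10.1% of the 25-nt words of Hist2h2aa1 and 40.4% of those of Hist1h2bg occur in no other gene, and how reads were divided among near-identical copies, such as Hist2h2aa2, listed at 0, was not tested.

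Hist2h3c2, an H3 gene, had 1865 and 1285 counts in vesicles labelled shDis3l2 and shNS, against 94 and 80 counts in cells labelled shDis3l2 and shNS, a 20.7-fold difference under shDis3l2. Hist1h2ab and Hist1h2bj, an H2A and an H2B gene, were 23.5-fold and 22.4-fold higher in vesicles under shDis3l2, and 27.3-fold and 25.8-fold higher under shNS. Hist1h4b had 424 and 209 counts in vesicles and 21 and 15 counts in cells labelled shDis3l2 and shNS, and was 21.1-fold higher under shDis3l2. A few other H2A and H2B genes had almost no cell counts. Hist1h2ak had 45 counts in vesicles and 0 in cells labelled shDis3l2, which is at least 15.7-fold higher against a floor of 3 counts in the cell library. Hist1h2bn had 49 counts in vesicles and 0 in cells labelled shNS, at least 17.7-fold higher on the same floor. Hist1h2ap, an H2A gene, had 67 and 69 counts in vesicles and 3 and 1 counts in cells labelled shDis3l2 and shNS, with log2 ratios of 4.33 (interval 2.94 to 6.86) and 5.65 (interval 3.70 to 11.55). Only 26.0% of the words of Hist1h2ak, 10.4% of those of Hist1h2bn and 6.55% of those of Hist1h2ap occur in no other gene. The share was 35.5% for Hist2h3c2, 33.6% for Hist1h2ab, 29.6% for Hist1h2bj and 37.0% for Hist1h4b. How reads were divided between these genes and others that share their sequence was not tested.

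The 3 members lower in vesicles under both labels were Hist4h4, Hist2h2be and Hist1h2bq. Hist4h4 was 4.15-fold lower (interval 3.57 to 4.84) under shDis3l2 and 3.01-fold lower (interval 2.58 to 3.54) under shNS. Hist2h2be, an H2B gene, had 35 and 35 counts in vesicles labelled shDis3l2 and shNS, against 82 and 127 counts in cells labelled shDis3l2 and shNS, 2.24-fold and 3.34-fold lower. Both have long annotated transcripts, of 2863 nt and 2620 nt, most of whose sequence is found in no other gene.

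Hist1h2bq is a different case. It was listed at 0 and 0 counts in vesicles labelled shDis3l2 and shNS, against 131 and 147 counts in cells labelled shDis3l2 and shNS, at least 41.8-fold and 45.2-fold lower. None of its 25-nt words is its own, since every one also occurs in another gene. Its neighbour Hist1h2br had 984 and 1809 counts in vesicles and 126 and 96 counts in cells labelled shDis3l2 and shNS. The sum of Hist1h2bp, Hist1h2bq and Hist1h2br, made after these values were seen, was 1108 and 1919 counts in vesicles and 267 and 255 counts in cells, 4.34-fold and 8.17-fold higher in vesicles. The 381-nt transcripts that the annotation gives for Hist1h2bq and Hist1h2br are not among the features analysed here. How the assignment of shared reads divided counts between Hist1h2bq and Hist1h2br was not tested.

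Hist1h1c, a linker histone gene, was the H1 gene with the most counts in cells and stood at nearly the same level in both compartments. It had 202 and 256 counts in vesicles labelled shDis3l2 and shNS, against 206 and 305 counts in cells labelled shDis3l2 and shNS. Its log2 ratios were 0.04 (interval -0.25 to 0.32) and -0.13 (interval -0.38 to 0.11), and on the protein-coding scale it was the fourth member lower in vesicles, at -1.51 and -1.63. The other H1 genes with enough counts were higher in vesicles. Hist1h1b, with 188 and 159 counts in vesicles and 13 and 12 counts in cells labelled shDis3l2 and shNS, was 15.1-fold and 14.4-fold higher. Hist1h1e was 7.46-fold and 6.95-fold higher, and Hist1h1d 3.08-fold and 2.71-fold higher. Hist1h1b and Hist1h1e were also called higher on the protein-coding scale, at 5.19-fold and 2.56-fold under shDis3l2, while Hist1h1d had log2 ratios of 0.08 and -0.06 under shDis3l2 and shNS.

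**Figure D3:**
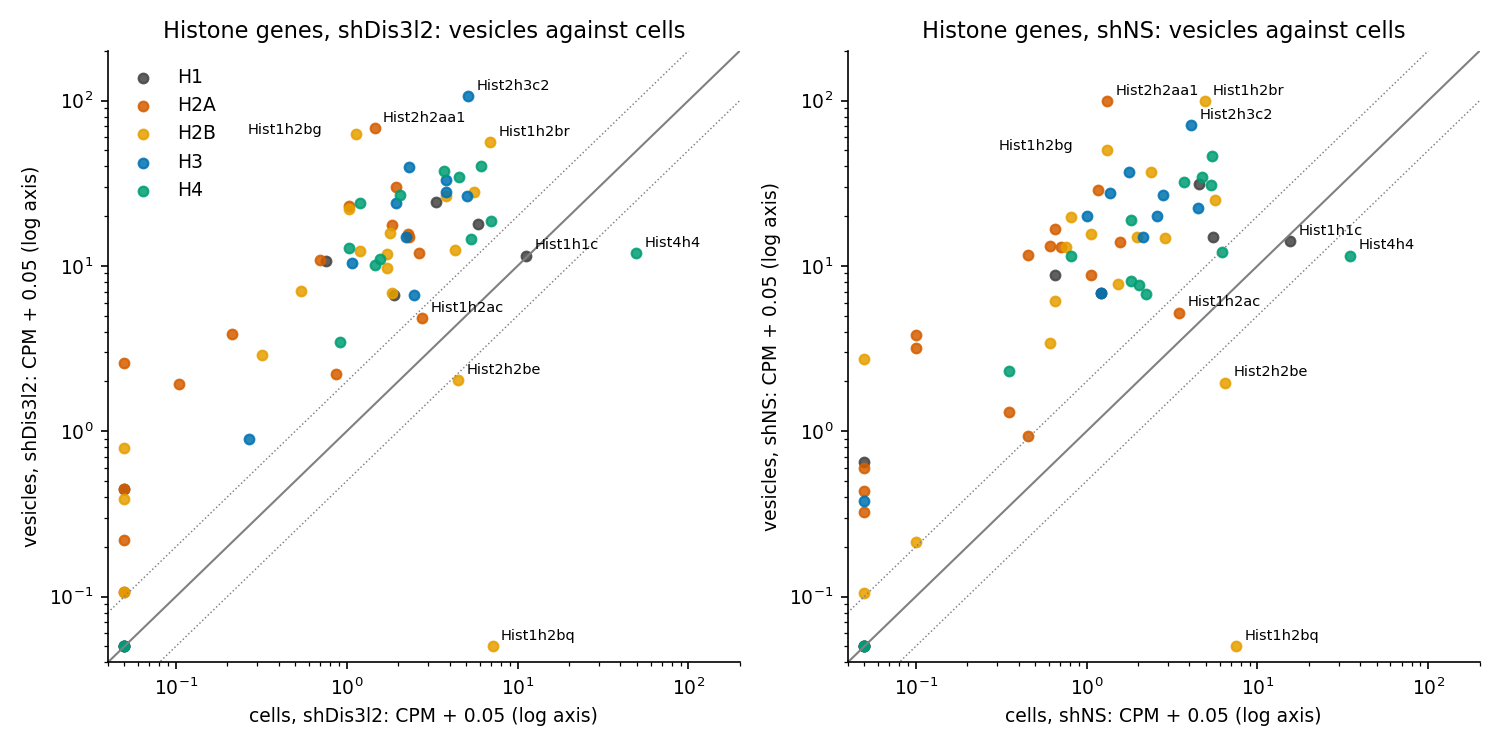
Each of the 67 histone genes by its level in cells (x axis) and in vesicles (y axis), as CPM + 0.05 on log axes, under shDis3l2 on the left and shNS on the right, coloured by class. The solid line marks equal levels and the dotted lines a 2-fold difference: most genes lie above the upper dotted line, Hist4h4, Hist2h2be and Hist1h2bq lie below the lower one, and Hist1h1c lies near the solid line.

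The members differed among themselves by the annotated 3′ end and by length, 2 groupings that were made after the member values had been seen. The 22 genes that end within 100 nt after the stem-loop summed to 7820 and 7711 counts in vesicles labelled shDis3l2 and shNS, against 792 and 595 counts in cells labelled shDis3l2 and shNS. They were 10.3-fold and 14.1-fold higher in vesicles. All 20 that reached the minimum were called higher under both labels, where 70.0% and 66.5% of protein-coding genes were under shDis3l2 and shNS. The 23 genes that run on past the stem-loop, with 9090 and 8875 counts in vesicles and 2287 and 2178 counts in cells, were 4.16-fold and 4.42-fold higher. The 22 genes with no match were 4.70-fold and 6.38-fold higher. Hist1h2br alone held 984 and 1809 of their 2285 and 2999 vesicle counts under shDis3l2 and shNS. The median log2 ratio of the genes ending near the stem-loop was 3.15 and 3.92 under shDis3l2 and shNS. It was 2.53 and 2.66 for those that run on, and 3.14 and 2.66 for those with no match. Under shDis3l2 the genes near the stem-loop and those with no match thus had nearly the same median. In counts on the protein-coding scale, the 3 groups were 3.55-fold and 4.99-fold, 1.43-fold and 1.57-fold, and 1.62-fold and 2.27-fold higher in vesicles under shDis3l2 and shNS. Called higher on that scale were 18 of 20 genes under each label in the first group. In the second group 10 and 11 of 20 were, and in the third 8 and 9 of 14. Of protein-coding genes, 31.4% and 26.9% were higher on that scale under shDis3l2 and shNS. The genes that run on include Hist4h4 and Hist1h1c, which hold a large part of that group's cell counts. Hist4h4 had 911 and 687 of the 2287 and 2178 counts in cells labelled shDis3l2 and shNS, and Hist1h1c had 206 and 305. In vesicles they had 210 and 210, and 202 and 256 counts. The group was not summed without these genes, so how far its lower ratio rests on them was not tested.

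By length, members under 700 nt had median log2 ratios of 3.29 and 3.63 under shDis3l2 and shNS, those of 700 to 1500 nt had 2.76 and 2.97, and those of at least 1500 nt had 1.55 and 1.44. Protein-coding genes of the same length classes had medians of 1.99 and 1.94, 1.93 and 1.91, and 1.89 and 1.69. The members' medians on the protein-coding scale were 1.74 and 2.14, 1.22 and 1.48, and 0.01 and -0.06, against 0.45 and 0.44, 0.39 and 0.42, and 0.35 and 0.20 for protein-coding genes. Across the 54 members, Spearman's rho between length and the ratio was -0.511 under shDis3l2 and -0.395 under shNS, and across protein-coding genes it was -0.0749 and -0.113. Genes are not independent replicates, and these share libraries and read sequence. Among members with long annotated models, Hist1h2br (2197 nt) and Hist3h2a (2146 nt) had ratios above the median of their length class. Hist3h2a is an H2A gene on chromosome 11. The log2 ratios of Hist1h2br and Hist3h2a were 3.02 and 2.18 under shDis3l2 and 4.35 and 4.24 under shNS. The 2197-nt model of Hist1h2br is typed as nonsense-mediated decay, and only 10.3% of its words occur in no other gene. The 381-nt transcript annotated for Hist1h2br is not among the features analysed here. Whether the reads counted on Hist1h2br come from a long transcript was not tested.

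**Figure D4:**
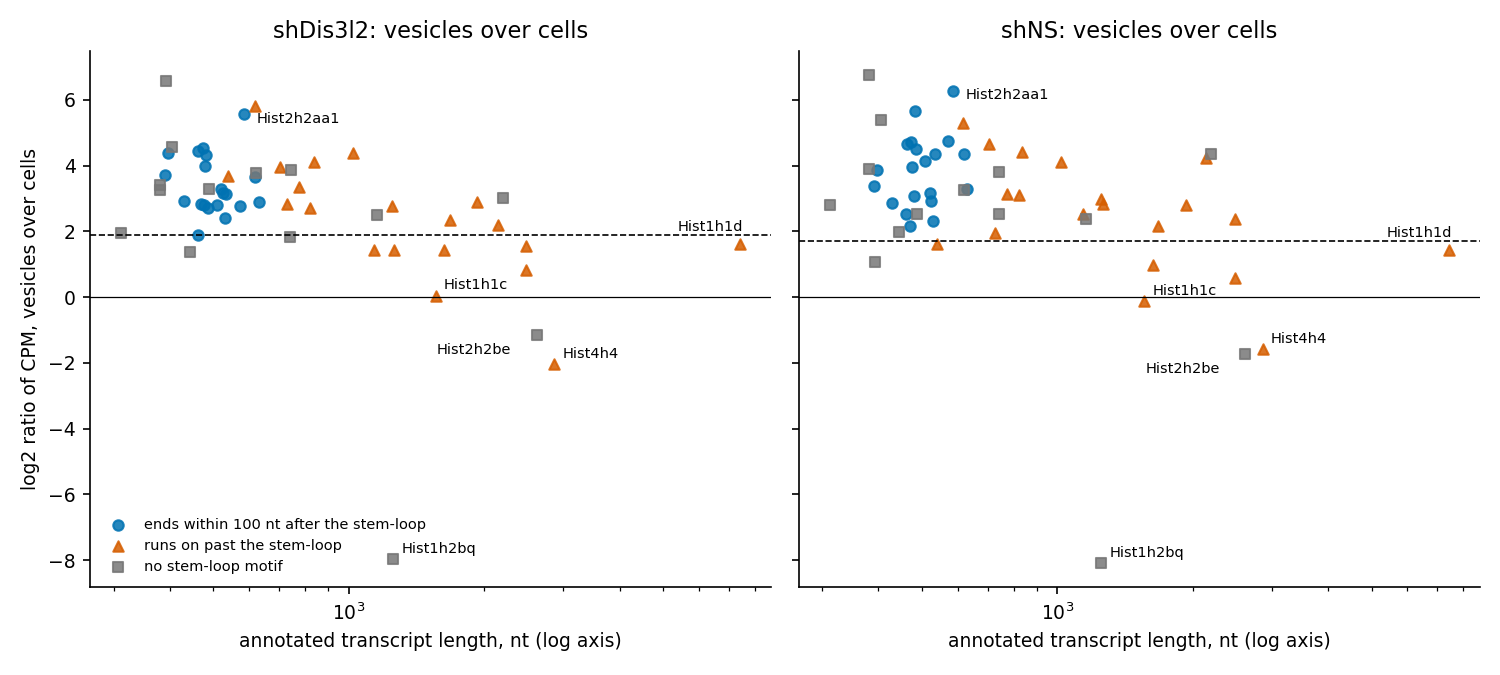
Log2 ratio of CPM in vesicles over cells against annotated transcript length in nt (log axis) for the 54 members that reached 20 counts, under shDis3l2 on the left and shNS on the right. Symbols give the annotated 3′ end, and the dashed line is the median of protein-coding genes (1.90 and 1.71): genes ending near the stem-loop are at most 630 nt long and lie at or above the dashed line, while Hist4h4, Hist2h2be and Hist1h1c lie among the long ones.

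Short histone transcripts are also the ones most alike in sequence. The median member had 37.4% of its 25-nt words in no other gene, and in 24 members it was at least 50%. Those 24 genes, a group also formed after values were seen, summed to 5640 and 6091 counts in vesicles labelled shDis3l2 and shNS, against 2243 and 2153 counts in cells labelled shDis3l2 and shNS. The 20 of them that reached the minimum had median log2 ratios of 2.00 and 2.37 under shDis3l2 and shNS, against 1.90 and 1.71 for protein-coding genes, and 0.46 and 0.88 against 0.36 and 0.22 on the protein-coding scale. The log2 ratios of their sums were 1.39 and 1.62, and on the protein-coding scale -0.15 (interval -0.22 to -0.08) under shDis3l2 and 0.12 (interval 0.05 to 0.20) under shNS. Without Hist4h4 the sum of the same group stood at 2.09 and 2.12, or 0.55 and 0.63 on the protein-coding scale. The sum of the other 43 genes stood at 3.40 and 3.70. Sequence sharing, length and the annotated 3′ end move together in this family and cannot be told apart here. Another gene overlaps 24 members, 21 of them on the opposite strand, and whether counting used the strand is unstated in the labels. Of those overlapping genes, Gm20634, on the same strand as Hist2h2aa1, had 651 and 587 counts in vesicles and 308 and 275 counts in cells labelled shDis3l2 and shNS.

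Between the labels, histone RNA in cells was slightly higher, in CPM, in the library labelled shDis3l2 than in that labelled shNS. The sums of 195 and 166 CPM differ by a log2 ratio of 0.23 (interval 0.16 to 0.30). On the protein-coding scale the direction turned, to -0.12 (interval -0.18 to -0.05), with 2183 under shDis3l2 and 2365 under shNS. Of the 50 members that reached the minimum in cells, 7 were higher and 1 lower, where 10.6% of protein-coding genes were higher and 7.15% lower and 11.6% of all genes were higher and 7.88% lower. On the protein-coding scale 5 were higher and 1 lower, where 5.34% of protein-coding genes were higher and 14.6% lower. The members' median log2 ratio was 0.20, against 0.09 for protein-coding genes, and -0.14 against -0.26 on the protein-coding scale. The intervals of 34 of the 50 members held 0.

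The 7 members called higher in cells labelled shDis3l2 all had low counts. Hist1h2ad, an H2A gene, had 41 counts in cells labelled shDis3l2 and 8 in cells labelled shNS, 5.49-fold higher (interval 2.54 to 13.6). Hist1h2ag had 42 and 11 counts under shDis3l2 and shNS, and Hist3h2a had 48 and 13 counts, 4.09-fold and 3.96-fold higher. Trim17, which overlaps Hist3h2a on the same strand, had 0 and 3 counts in vesicles and 2 and 17 counts in cells labelled shDis3l2 and shNS, and how reads were divided between them was not tested. These 3 H2A genes hold most of the difference between the H2A sums, which were 17.6 CPM under shDis3l2 and 11.4 CPM under shNS (log2 ratio 0.62, interval 0.37 to 0.88). Hist1h2bf, with 33 and 11 counts, Hist1h3a, with 69 and 26 counts, Hist1h4k, with 16 and 6 counts, and Hist1h2bb, with 31 and 14 counts, were between 2.37-fold and 3.22-fold higher. Genes that end within 100 nt after the stem-loop were 5 of these 7 and 19 of the 50 that reached the minimum.

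Hist1h4a, an H4 gene, was the 1 member lower in cells labelled shDis3l2, with 18 counts under shDis3l2 and 43 under shNS, 2.23-fold lower (interval 1.26 to 4.11). The members that were lower by less than 2-fold with intervals that exclude 0 were Hist1h1c and Hist2h2be. Hist1h1c had 206 counts under shDis3l2 and 305 under shNS, at -0.46 (interval -0.73 to -0.21), and Hist2h2be had 82 and 127 counts, at -0.53 (interval -0.95 to -0.12). In the other direction Hist4h4, with 911 counts under shDis3l2 and 687 under shNS, stood at 0.51 (interval 0.36 to 0.65). It carries much of the summed difference, which without it was 0.14 (interval 0.07 to 0.22).

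In vesicles, summed histone RNA in CPM did not differ between the labels beyond counting error. The sums were 1090 CPM under shDis3l2 and 1077 CPM under shNS, a log2 ratio of 0.02 (interval -0.01 to 0.05). Protein-coding RNA as a whole was a larger share of the library labelled shDis3l2, and on the protein-coding scale histones stood lower in it, at -0.37 (interval -0.40 to -0.35). Of 54 members, 3 were higher and 1 lower, where 9.75% of protein-coding genes were higher and 2.82% lower and 11.6% of all genes were higher and 4.44% lower. On the protein-coding scale 1 was higher and 4 were lower, where 5.09% of protein-coding genes were higher and 6.88% lower. The members' median log2 ratio was 0.18, against 0.28 for protein-coding genes, and -0.21 against -0.11 on the protein-coding scale.

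The members called higher in vesicles labelled shDis3l2 were Hist1h2ak, Hist1h4b and Hist1h2bf. Hist1h2ak, an H2A gene, had 45 counts under shDis3l2 and 5 under shNS, 9.29-fold higher (interval 3.70 to 30.0). Hist1h4b had 424 counts under shDis3l2 and 209 under shNS, 2.10-fold higher, and Hist1h2bf 119 and 61 counts, 2.01-fold higher. Hist1h2bf was the 1 member called in both cells and vesicles. Hist1h3f, an H3 gene, was lower, with 117 counts under shDis3l2 and 269 under shNS, 2.23-fold (interval 1.79 to 2.79).

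The abundant vesicle members did not differ between the labels in 1 direction. Hist2h2aa1 had 1197 counts under shDis3l2 and 1807 under shNS, at -0.55 (interval -0.65 to -0.44), and Hist1h2br 984 and 1809 counts, at -0.83 (interval -0.95 to -0.72). Hist2h3c2, by contrast, had 1865 counts under shDis3l2 and 1285 under shNS, at 0.58 (interval 0.48 to 0.69). Hist1h4d and Hist1h4a, both H4 genes, stood at -0.72 and 0.93. By class, H3 was higher under shDis3l2, at 0.23 (interval 0.17 to 0.29), and H4 at 0.14 (interval 0.08 to 0.20), while H2B was lower, at -0.17 (interval -0.23 to -0.12), and H2A at -0.08 (interval -0.15 to -0.02). The summed H3, H2B and H2A values each moved when 1 gene was left out. The median of the H3 genes was 0.25 with or without Hist2h3c2, against 0.28 for protein-coding genes. Without Hist2h3c2 H3 stood at 0.06 (interval -0.01 to 0.13), without Hist1h2br H2B stood at 0.06 (interval -0.01 to 0.12), and without Hist2h2aa1 H2A stood at 0.21 (interval 0.13 to 0.29), sums made after these values were seen. On the protein-coding scale all 5 classes were lower under shDis3l2, between -0.16 for H3 and -0.56 for H2B. The label ratios of the 49 members measured in both compartments had a Spearman's rho of 0.0611 between vesicles and cells.

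**Figure D5:**
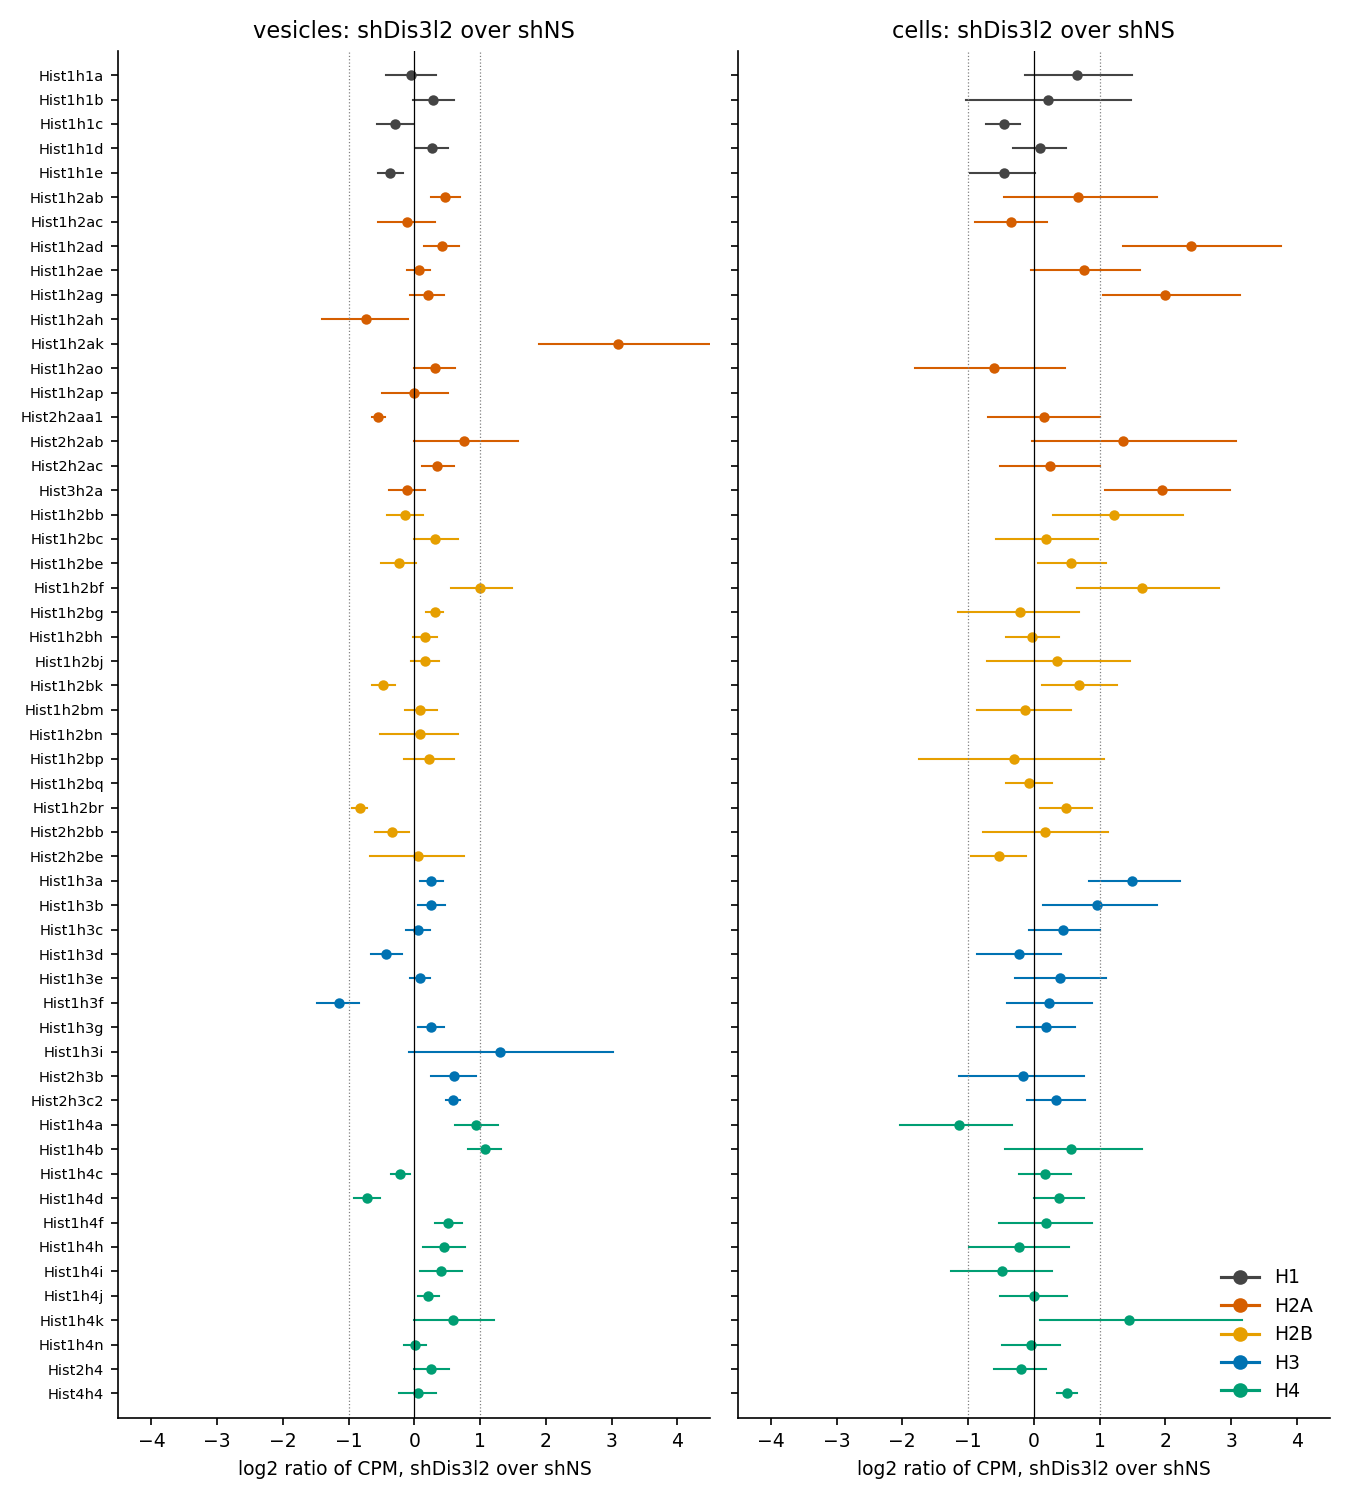
Log2 ratio of CPM, shDis3l2 over shNS, of each member that reached 20 counts, in vesicles on the left and in cells on the right, ordered and coloured by class, with exact 95% intervals and dotted lines at 2-fold. Most points lie between the dotted lines, the highest vesicle point is Hist1h2ak at 3.09, and the highest cell points are Hist1h2ad, Hist1h2ag and Hist3h2a at 2.39, 1.99 and 1.95, with wider intervals.

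Most of the histone genes listed as replication-independent, whose mRNAs mostly carry poly(A) tails, were also higher in vesicles. Of 12 such genes, 9 reached the minimum and 8 of these were higher under each label, where 70.0% and 66.5% of protein-coding genes were higher under shDis3l2 and shNS. Their medians were 2.64 and 3.70, against 1.90 and 1.71 for protein-coding genes. By the protein-coding scale, 6 were higher under shDis3l2 and 8 under shNS, where 31.4% and 26.9% of protein-coding genes were, and 1, Cenpa, was lower under shNS. H2afz, the variant H2A.Z, had 655 and 679 counts in vesicles and 58 and 37 counts in cells labelled shDis3l2 and shNS. Cenpa, the H3 variant of centromeres, stayed under 2-fold in CPM, with 136 and 113 counts in vesicles and 73 and 89 counts in cells, and log2 ratios of 0.96 and 0.46, or -0.58 and -1.03 on the protein-coding scale. Between the labels, 1 of 8 was higher in cells labelled shDis3l2 (H3f3a) and 0 of 9 in vesicles, where 10.6% and 9.75% of protein-coding genes were higher. In cells 0 of 8 were higher on the protein-coding scale.

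Of 12 genes for histone mRNA 3′ processing, 8 of 12 with enough counts were higher in vesicles under shDis3l2 and 8 of 11 under shNS, with medians of 1.66 and 1.10. Of protein-coding genes, 70.0% and 66.5% were higher, with medians of 1.90 and 1.71. Relative to protein-coding counts, 2 of 12 were higher and 2 lower under shDis3l2, and 0 of 11 were higher and 1 lower under shNS. The shares of protein-coding genes on that scale were 31.4% higher and 20.4% lower under shDis3l2, and 26.9% and 21.7% under shNS. Slbp, whose protein binds the stem-loop, did not differ in CPM between the compartments beyond counting error, with 130 and 105 counts in vesicles and 145 and 129 counts in cells labelled shDis3l2 and shNS. Its log2 ratios were -0.09 (interval -0.45 to 0.26) and -0.18 (interval -0.56 to 0.20). Slbp was lower in vesicles on the protein-coding scale, at -1.63 (interval -1.99 to -1.28) and -1.67 (interval -2.06 to -1.29). Rnu7, the U7 small nuclear RNA, had 3603 and 10869 counts in vesicles and 10053 and 8064 counts in cells, and was the 1 gene of this list lower in vesicles in CPM under shDis3l2, at -1.42. It was also lower in vesicles labelled shDis3l2 than in those labelled shNS, at -1.55.

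Of 14 genes for decay and tailing of histone mRNA, 12 of 14 were higher in vesicles under shDis3l2 and 11 of 13 under shNS, with medians of 2.12 and 2.83, where 70.0% and 66.5% of protein-coding genes were higher. Relative to protein-coding counts, 3 of 14 were higher and 2 lower under shDis3l2, and 9 of 13 were higher and 0 lower under shNS. On that scale 31.4% of protein-coding genes were higher and 20.4% lower under shDis3l2, and 26.9% and 21.7% under shNS. Tut7, which encodes a terminal uridylyltransferase, had 141 and 98 counts in vesicles and 73 and 71 counts in cells labelled shDis3l2 and shNS. Tut4, which encodes another, had 147 and 88 counts in vesicles and 41 and 28 counts in cells. Dcp2, which encodes the decapping enzyme, had 8448 and 4871 counts in vesicles and 155 and 171 counts in cells. Between the labels in cells, 4 of 11 genes were higher under shDis3l2, where 10.6% of protein-coding genes were: Dis3l2, Lsm1, Exosc10 and Lsm3. Only 1 of 11, Dis3l2, was higher on the protein-coding scale, where 5.34% of protein-coding genes were.

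Of 20 genes of DNA replication and S phase, 18 were higher in vesicles under shDis3l2 and 19 under shNS, with medians of 2.89 and 2.44, where 70.0% and 66.5% of protein-coding genes were higher. Relative to protein-coding counts, 16 were higher and 2 lower under shDis3l2, and 9 were higher and 1 lower under shNS. Protein-coding genes on that scale were 31.4% higher and 20.4% lower under shDis3l2, and 26.9% and 21.7% under shNS. Rrm2, a subunit of ribonucleotide reductase, had 727 and 437 counts in vesicles and 31 and 23 counts in cells labelled shDis3l2 and shNS. Mcm7, whose introns host miRNAs, was lower under both labels, with 26396 and 61553 counts in vesicles and 259487 and 192347 counts in cells. In cells, 4 of the 20 (Mcm3, Ccne1, Mki67 and Top2a) were higher under shDis3l2 than under shNS and 0 were lower, where 10.6% of protein-coding genes were higher. By the protein-coding scale, 1 of the 20, Mcm3, was higher, where 5.34% of protein-coding genes were. In vesicles, by CPM, 0 were higher under shDis3l2 and 1, Mcm7, was lower, where 9.75% of protein-coding genes were higher and 2.82% lower.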

How the data were processed

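Small RNA libraries of RAW264.7 cells and vesicles, 1 library for each of 4 groups, were compared. The deposited table holds estimated counts per transcript from the authors, which are not whole numbers and are not normalized. The submitters' processing notes name cutadapt, Salmon and Novoalign, and the builds GRCm38 and mm10, with no versions. Whether molecular identifiers were collapsed, and whether counting used the strand, is stated neither in the labels nor in the table. Counts were summed per gene through GENCODE M21 and rounded. Of 141239 features, 1448 had no name there and stayed in the totals as features of their own. Every column of per-sample values was used (0 were left out).

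Log2 ratios used counts per 1000000 counts (CPM) and a pseudocount of 0.5. Fold changes and exact conditional 95% intervals came from the counts. Calls needed 2-fold, an interval that excludes 1 and 20 counts over the 2 libraries. A gene at 0 was compared through a floor of 3 counts per library. No p-value was computed, since each group is 1 library. The calling code was tested on simulated data. Computation used Python 3.11.15, numpy 2.4.6, pandas 2.3.3, scipy 1.17.1, matplotlib 3.10.9, R 4.3.3, edgeR 4.0.16 (TMM factors) and DESeq2 1.42.0 (size factors).

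Members and lists were chosen with earlier results of these data known. Named were class sums, the 10 members with the most counts in each library, up to 10 members in each direction per comparison with at least 50 counts, members of the lists, and Dis3l2. Called members with fewer counts were named after their values were seen. So were the stem-loop motif, the 100 nt bound, the length classes, the word groups and the sums without single genes chosen, and they carry no test. Alternatives were other scales, pseudocounts, minimums and subsets of members.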

Additional observations from a re-analysis of the deposited data

Results flagged for a closer look

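In 5 places the label ratio (shDis3l2 over shNS, log2 scale, from CPM) pointed opposite ways in vesicles and in cells, with both intervals excluding 0. With 1 library per group the difference was not tested. The summed H2A genes stood at -0.08 in vesicles and 0.62 in cells, a difference of -0.70, and on the protein-coding scale at -0.48 and 0.28. Without Hist2h2aa1 they stood at 0.21 in vesicles and 0.67 in cells, the same direction. In vesicles 69.2% of the H2A genes with enough counts stood above 0, where 70.4% of protein-coding genes did. The summed H2B genes stood at -0.17 in vesicles and 0.18 in cells, a difference of -0.35, but at -0.56 and -0.17, the same direction, on the protein-coding scale. Without Hist1h2br they stood at 0.06 in vesicles and 0.12 in cells. In vesicles 64.3% of the H2B genes with enough counts stood above 0, against the same 70.4% of protein-coding genes. Hist1h2bk, an H2B gene, stood at -0.47 in vesicles and 0.68 in cells, a difference of -1.15. On the protein-coding scale its value in cells was 0.34 (interval -0.22 to 0.91). Hist1h2br, which shares most of its sequence with other H2B genes, stood at -0.83 in vesicles and 0.49 in cells, a difference of -1.32. Summed with Hist1h2bp and Hist1h2bq it stood at -0.75 in vesicles and 0.17 (interval -0.09 to 0.42) in cells. Hist1h4a, an H4 gene, went the other way, at 0.93 in vesicles and -1.13 in cells, a difference of 2.06.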

How the results depend on the processing

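Of 107 alternative values, 50 stayed close to the reported value, that is, a summed ratio within its counting interval or a count within 1.5 times it, 53 moved and 4 reversed. Where no reason follows, the cause was not tested. The scales by transcripts typed protein coding and the subsets by 3′ end and by word were added after the data were seen, as were the class sums without 1 gene. Reversed on 2 scales was the summed label ratio in cells, 0.23 by all counts, -0.12 by protein-coding counts and -0.13 by transcripts typed protein coding. It was 0.14 without Hist4h4, 0.51 for genes ending near the stem-loop and 0.16 for genes with mostly unique words. The summed label ratio in vesicles, 0.02, became -0.37 by protein-coding counts, -0.24 by TMM, -0.18 by DESeq2, -0.38 by typed transcripts, -0.03 without Hist2h3c2, 0.07 near the stem-loop and -0.06 for unique words. Vesicles over cells under shDis3l2, 2.48, became 0.94, 1.29, 1.24 and 0.51 on those 4 scales, 2.37 without Hist2h3c2, 3.37 near the stem-loop and 1.39 for unique words. Under shNS, 2.70 became 1.20, 1.71, 1.58 and 0.75 on those scales, 2.60 without Hist1h2br, 3.81 and 1.62. The label ratio in vesicles became 0.21 in place of -0.08 for H2A without Hist2h2aa1, 0.06 in place of -0.17 for H2B without Hist1h2br and 0.06 in place of 0.23 for H3 without Hist2h3c2. The scales move all genes together. The median of all genes in vesicles over cells was 1.74 and 1.53 under shDis3l2 and shNS by all counts, 0.19 and 0.04 by protein-coding counts, 0.54 and 0.54 by TMM, 0.49 and 0.42 by DESeq2, and -0.24 and -0.41 by typed transcripts.

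Members higher in cells by label, 7, became 0 at a minimum of 100 counts and 1 among genes with unique words. The 1 lower became 0 with a pseudocount of 5, at that minimum and in both subsets. Members higher in vesicles by label, 3, became 1 on each of the 4 other scales and 0 for unique words. The 1 lower became 4 by protein-coding counts and by typed transcripts, 2 by TMM, by DESeq2 and at a minimum of 10 counts, and 0 in both subsets. For vesicles over cells, 49 higher under shDis3l2 became 25 by typed transcripts, and 47 under shNS became 29, with 5 lower in place of 3 under each label. The subsets hold fewer genes: 20 near the stem-loop were higher under each label and 0 lower, and 16 and 15 with unique words were higher under shDis3l2 and shNS. No paired analysis was possible because the labels carry no replicate numbers and each group is 1 library; for the same reason no replicate could be left out.

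Depth limits the label ratios in cells most, where the 5 classes hold between 226 and 1543 counts and 17 of 67 members fell below the minimum.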
